A study of Ovis aries with 15 samples.

Results

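The genes BAX, BAK1, BCL2, BCL2L1, MCL1, APAF1, CASP8 and CASP9 encode proteins that control the opening of the outer mitochondrial membrane and the start of the caspases. Their rows were taken by gene name, and 8 of the 25592 genes in the table belong to the set. The table holds kidney RNA of sheep in 3 groups: CON, fed the basal diet, AFB1, fed the diet with added aflatoxin B1, a mould toxin of feed, and AFB1_CUR, fed the same toxin together with curcumin, the yellow pigment of turmeric. All the sheep were male crossbreds of the Dorper and Small-tailed Han breeds and were kept on the same total mixed ration. Each group had 5 libraries. Sheep shared pens in the study, and which libraries came from penmates is not given in the sources used here, so the tests measure the spread between libraries. The study measured apoptosis transcripts in the kidney by RT-qPCR and some of their proteins by Western blot. Of these 8 genes, its RT-qPCR found BCL2 lower with the toxin and higher when curcumin was added, and CASP9 lower with curcumin. From its RNA-seq the study also reported apoptosis-related genes as upregulated in AFB1. The deposited RNA-seq table was read here for the same question: did the balance of these regulators differ between the groups?

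In the intrinsic pathway, BAX and BAK1 are the effectors that form pores in the outer mitochondrial membrane. BCL2, BCL2L1 (the gene of BCL-XL) and MCL1 are survival proteins that hold the effectors in check. Cytochrome c that leaves through the pores binds APAF1, which assembles into the apoptosome and activates the initiator caspase CASP9, whereas CASP8 is the initiator caspase of the death receptors. In the kidney, cells of the tubule are known to die by this route after toxic injury.

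The libraries held between 50255295 and 68747047 counted reads each. In the library labelled AFB1 replicate 1 the summed FPKM (fragment count scaled by transcript length and library size) of 12 hepatocyte markers was 46210, against 47.5 to 129 in the other 14 libraries. Its sum over the 8 proximal tubule markers found in the table was 34.8, against 1367 to 3725, and that over the 8 markers of the loop, distal tubule and collecting duct was 17.5, against 962 to 2962. NPHS1 of podocytes and KCNJ1 of the loop were at 0 in it. The library therefore went against its kidney label. Its values are given apart, the AFB1 group has n = 4 without it, and the result with all 15 libraries stands beside the main one. All 8 genes passed the filter on low values in both sets of libraries. APAF1 passed it only because the AFB1_CUR libraries were included. In a fit of CON and AFB1 alone it did not pass, so it was not tested there.

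Among the effectors, BAX lies on chromosome 14 from 55274997 to 55279160, in the coordinates that the deposited table shares with the sheep assembly ARS-UI_Ramb_v3.0. Its FPKM was 12.75, 17.0, 13.5, 11.4 and 11.0 in CON, 14.5, 14.7, 14.2 and 10.6 in AFB1 replicates 2 to 5, and 9.24, 16.6, 13.8, 10.2 and 13.8 in AFB1_CUR. The ranges of the 3 groups overlapped, and both the lowest and the next lowest value were in AFB1_CUR. BAK1 (chromosome 20, 7859108 to 7865407) had an FPKM of 14.8, 14.1, 20.4, 14.5 and 8.46 in CON, 17.4, 21.8, 17.2 and 10.25 in AFB1 and 12.9, 19.8, 17.0, 15.8 and 19.2 in AFB1_CUR. Its lowest library was CON replicate 5 and its highest AFB1 replicate 3, and the CON group alone covered most of the range of the 14 libraries.

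Of the survival genes, BCL2 (chromosome 23, 61703619 to 61902043) was the lowest in level. It stood at 1.64, 2.74, 1.63, 1.39 and 2.25 FPKM in CON, at 3.19, 1.82, 1.64 and 0.942 in AFB1, and at 1.64, 1.99, 1.43, 1.95 and 1.93 in AFB1_CUR. The AFB1 group held both the highest and the lowest of the 14 values. BCL2L1 (chromosome 13, 60888881 to 60941710) had an FPKM of 55.7, 57.0, 60.6, 36.3 and 38.8 in CON, 52.25, 54.5, 64.5 and 42.1 in AFB1, and 31.9, 44.2, 50.0, 56.0 and 49.5 in AFB1_CUR. MCL1 (chromosome 1, 100590177 to 100594862), whose protein is short-lived and is replaced continually, had an FPKM of 61.8, 92.1, 84.7, 51.4 and 76.4 in CON, 87.1, 75.6, 75.2 and 71.4 in AFB1, and 73.4, 95.8, 76.2, 70.0 and 63.5 in AFB1_CUR. For BCL2L1 and MCL1, as for BCL2, the ranges of the 3 groups overlapped.

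APAF1 (chromosome 3, 168357659 to 168439798) had an FPKM of 0.781, 1.34, 0.970, 0.694 and 0.862 in CON, 2.23, 1.01, 1.32 and 0.853 in AFB1, and 1.28, 2.67, 1.37, 1.04 and 1.5 in AFB1_CUR. The 2 highest values were those of AFB1_CUR replicate 2 and AFB1 replicate 2, and 4 of the 5 CON values lay below every AFB1_CUR value. CASP8 (chromosome 2, 203617067 to 203641002) had an FPKM of 6.38, 8.38, 7.03, 5.75 and 7.12 in CON, 11.3, 8.73, 8.49 and 4.88 in AFB1, and 7.25, 13.7, 6.675, 6.83 and 7.37 in AFB1_CUR. Here too AFB1_CUR replicate 2 was the highest and AFB1 replicate 2 the next. CASP9 (chromosome 12, 51308569 to 51330658) had an FPKM of 3.62, 4.12, 4.39, 4.74 and 5.38 in CON, 4.83, 4.30, 5.07 and 4.93 in AFB1, and 4.17, 4.63, 4.17, 4.27 and 4.94 in AFB1_CUR. Both ends of its range were in CON.

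**Figure D1:**
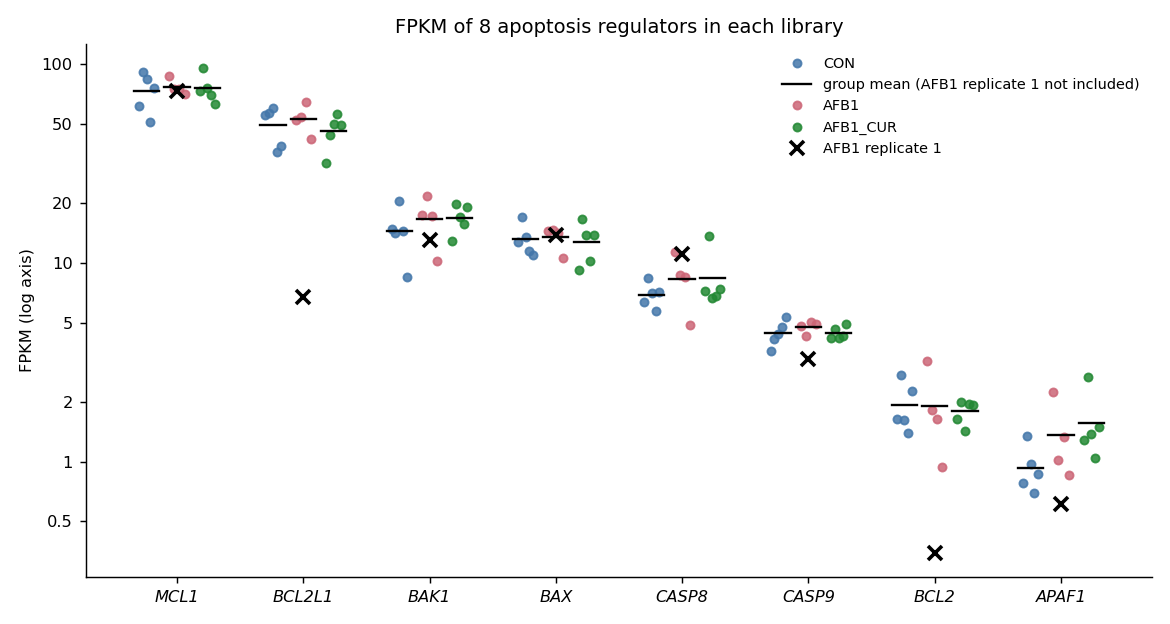
FPKM of the 8 genes (log axis) in each of the 15 libraries, coloured by group, with genes ordered by their mean over 14 libraries. Lines mark group means without AFB1 replicate 1, which is drawn as a cross and lies below all other libraries for BCL2L1, CASP9, BCL2 and APAF1. The 3 groups overlap for each gene.

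Over the 14 libraries, MCL1 had the highest mean level (75.3 FPKM ± 11.99, SD), followed by BCL2L1 (49.5 ± 9.62), BAK1 (16.0 ± 3.82), BAX (13.1 ± 2.34), CASP8 (7.85 ± 2.27), CASP9 (4.54 ± 0.469), BCL2 (1.87 ± 0.5681) and APAF1 (1.28 ± 0.560). MCL1 exceeded BCL2L1, BCL2L1 exceeded BAK1, BAX exceeded CASP8 and CASP9 exceeded BCL2 in 14 of 14 libraries. BAK1 and BAX were closer, with BAK1 the higher in 11 of 14. CASP8 was above CASP9 and BCL2 above APAF1 in 13 of 14. Among the survival genes, MCL1 had a higher mean FPKM than 95.1% of the 13162 tested genes, BCL2L1 than 92.0% and BCL2 than 15.2%.

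The genes also differed in their steadiness. The coefficient of variation over the 14 libraries was lowest for CASP9, at 10.3%, which was above that of only 8.40% of the tested genes. It was 15.9% for MCL1, 17.9% for BAX, 19.4% for BCL2L1, 23.9% for BAK1, 29.0% for CASP8, 30.4% for BCL2 and 43.7% for APAF1, against a median of 20.3% over the tested genes. APAF1 was thus the most variable of the set and also the lowest in level, although its counts ranged from 490 to 2091 reads in these libraries.

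The proteins of BAX and BAK1 act against those of the survival genes, so the ratios of FPKM were taken within each library. The BAX to BCL2 ratio averaged 7.08 in CON (SD 1.49, n = 5), 8.13 ± 2.77 in AFB1 (n = 4) and 7.202 ± 1.85 in AFB1_CUR (n = 5). The AFB1 libraries stood at 4.53, 8.07, 8.66 and 11.2, so that group held both ends of the range. For BAX to BCL2L1 the means were 0.270 ± 0.0417 (CON), 0.254 ± 0.0252 (AFB1) and 0.281 ± 0.0691 (AFB1_CUR). BAK1 to MCL1 was 0.206 ± 0.0708, 0.215 ± 0.0605 and 0.227 ± 0.0465 in the same order, and BAK1 to BCL2L1 was 0.294 ± 0.0740, 0.311 ± 0.0705 and 0.372 ± 0.0641. For each of the 4 ratios the 3 groups overlapped. These ratios were not tested.

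**Figure D2:**
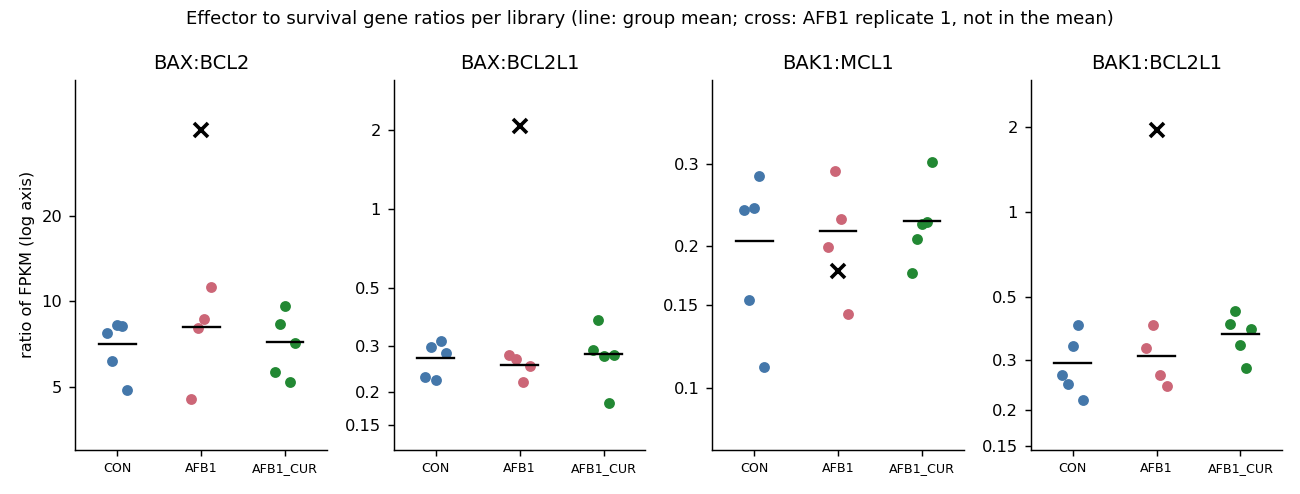
Ratio of FPKM of an effector gene to a survival gene in each library (log axes), by group, with the group mean as a line. AFB1 replicate 1, drawn as a cross and left out of the means, had a BAX to BCL2 ratio of 40.02, above the 4.53 to 11.2 of the other libraries, while its BAK1 to MCL1 ratio of 0.178 lay within theirs.

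Compared with the CON group, none of the 8 genes was called in AFB1. A call needed both a change of more than 1.5-fold and p under 0.05 before adjustment, the screening conditions of the study, here in the quasi-likelihood test of edgeR. By that rule 1.76% of the tested genes were called in this comparison. The estimate was higher in AFB1 for 7 of 8 genes, with a median log2 fold change of 0.10, against 53.4% of all tested genes with a higher estimate and a median of 0.02. BCL2 was the exception, at -0.05 (SE 0.25). The largest estimate was that of APAF1, 0.53 (SE 0.27, unadjusted p = 0.0682, Benjamini-Hochberg adjusted p = 0.957, edgeR). CASP8 followed at 0.25 (SE 0.20), BAK1 at 0.18 (SE 0.22), CASP9 and BCL2L1 each at 0.10 (SE 0.13 and 0.19), MCL1 at 0.08 (SE 0.14) and BAX at 0.03 (SE 0.16). APAF1 was called here when CON replicate 2, AFB1 replicate 3 or AFB1 replicate 5 was left out, at 0.66, 0.65 and 0.66. Without AFB1 replicate 2 its estimate was 0.23 (unadjusted p 0.359, edgeR). That of CASP8 was 0.11 without AFB1 replicate 2 and 0.41 without AFB1 replicate 5 (unadjusted p 0.0426, edgeR), under the fold threshold. The adjusted p values of the 8 genes ran from 0.957 to 0.988.

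How large a difference these libraries still allow was read from the 95% intervals. In AFB1 against CON the interval lay within a 1.5-fold change in either direction for 4 of 8 genes, BAX, BCL2L1, MCL1 and CASP9, and within a 2-fold change for 7. The interval of BAX ran from -0.30 to 0.37 on the log2 scale and that of CASP9 from -0.17 to 0.38. That of APAF1 reached from -0.05 to 1.096, so a change of more than 2-fold in APAF1 was within it. BCL2 and CASP8, with intervals of -0.59 to 0.49 and -0.18 to 0.68, were bounded less tightly than BAX.

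With AFB1 replicate 1 in the fit, 4.84% of the tested genes were called between AFB1 and CON, and again 0 of the 8. CASP8 then had the largest estimate, 0.56 (SE 0.26, unadjusted p = 0.0503, edgeR), against 0.25 without that library. The estimate of BAX went from 0.03 to 0.22 and that of MCL1 from 0.08 to 0.23, whereas BCL2 went to -0.26 and BCL2L1 to -0.15, the reverse of its sign without the library. In the 14 libraries without it, the AFB1 and CON values of FPKM overlapped for all 8 genes, whereas they did not for 1.54% of the tested genes.

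Compared with the AFB1 group, the AFB1_CUR group had a lower estimate for 7 of 8 genes and a median log2 fold change of -0.11, against 0.00 over all tested genes. These values share the AFB1 libraries with the comparison above. None of the 8 was called, where 0.935% of the tested genes were, and the adjusted p was 1 for each (edgeR). BCL2L1 stood at -0.27 (SE 0.19), CASP9 at -0.18 (SE 0.13), BAX at -0.16 (SE 0.16), BCL2 at -0.12 (SE 0.25), MCL1 at -0.10 (SE 0.14), CASP8 at -0.07 (SE 0.20) and BAK1 at -0.04 (SE 0.22). APAF1 alone had a positive estimate, 0.14 (SE 0.27). The interval was within a 1.5-fold change for 5 of 8 genes and within a 2-fold change for all 8. With all 15 libraries 3.98% of the tested genes and none of the 8 were called, and BCL2 turned to 0.10. Groups without overlap were found for 0.676% of the tested genes and for none of these 8.

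Between AFB1_CUR and CON, APAF1 was called, the only member called in any of the 3 comparisons. Mean FPKM was 0.930 in CON (SD 0.252, n = 5) and 1.57 in AFB1_CUR (SD 0.638, n = 5). The log2 fold change was 0.67 (SE 0.25, 95% interval 0.13 to 1.21), or 1.59-fold. In edgeR the unadjusted p was 0.0194 and the Benjamini-Hochberg adjusted p = 0.823, so the call does not hold over the 13162 genes tested. APAF1 passed the filter on low values only through AFB1_CUR, the group where it was higher, so its call is not independent of that filter. With no filter on low values APAF1 was called at 0.65 (unadjusted p 0.0153, edgeR). The background was 1.63% of genes called with 14 libraries and 0.993% with 15, where APAF1 was again called at 0.67. Without AFB1_CUR replicate 2 the log2 fold change of APAF1 was 0.46 and its unadjusted p 0.0665 (edgeR), and the call was lost. It was also lost with limma on log2(FPKM + 1), at 0.39, and with limma's sample quality weights, at 0.46.

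The other 7 genes were not called between AFB1_CUR and CON. CASP8 had an estimate of 0.18 (SE 0.19), BAK1 of 0.14 (SE 0.20), MCL1 of -0.02 (SE 0.14), CASP9 of -0.08 (SE 0.12), BAX of -0.13 (SE 0.15) and both BCL2L1 and BCL2 of -0.17 (SE 0.18 and 0.24). Without AFB1_CUR replicate 2, the estimate of CASP8 was 0.0053. The intervals of BAX, BCL2L1, MCL1 and CASP9 were among the 5 within a 1.5-fold change. No member separated the groups, as 0.722% of the tested genes did. Over all genes, 0 passed edgeR's adjusted p in each of the 3 comparisons; before adjustment 664, 303 and 723 genes had p under 0.05. DESeq2 called 17, 3 and 1 genes after adjustment, none of them a member, and the lowest adjusted p among the 8 genes in DESeq2 was 0.817, 1 and 0.613.

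**Figure D3:**
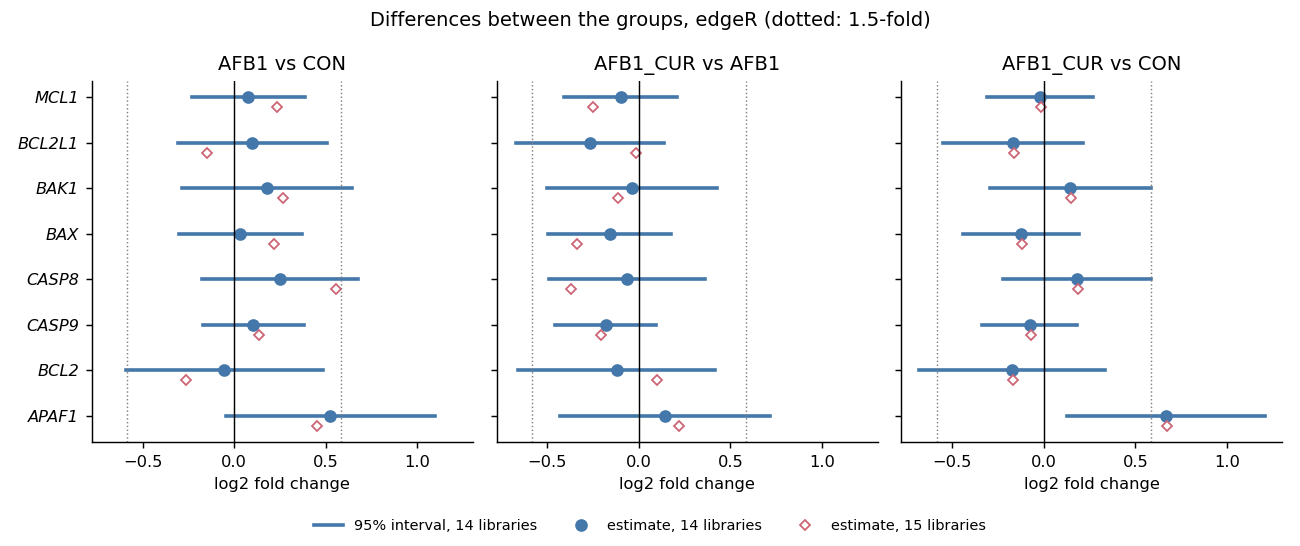
Log2 fold change of each gene in the 3 comparisons from edgeR, with the 95% interval of the fit to 14 libraries (blue) and the estimate of the fit to 15 libraries (open diamonds). Dotted lines mark a 1.5-fold change. The interval of APAF1 between AFB1_CUR and CON, 0.13 to 1.21, is the only one without 0, and the diamonds of CASP8 and BCL2L1 move most with the added AFB1 library.

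AFB1 replicate 1, with its hepatocyte transcripts, had FPKM within the range of the other libraries for 4 of the 8 genes. FPKM is scaled to the library total, and on the TMM scale of the fit adding this library raised the estimates of BAX, MCL1 and CASP8 in AFB1 against CON, as given above. BAX stood at 13.9 FPKM in it against a median of 13.6 in the other libraries, and MCL1 at 73.85 against 75.4. BAK1, at 13.1, and CASP8, at 11.1, were within the range of the others too. BCL2L1 was at 6.73 FPKM against 31.9 to 64.5, which is 7.60-fold below the median, and BCL2 at 0.347 against 0.942 to 3.19, which is 4.98-fold below it. APAF1 and CASP9 lay just under all others, 1.91-fold and 1.38-fold below their medians. Of all tested genes 61.5% lay below and 9.63% above the 14 other libraries in it, so 4 of 8 genes below is no larger a share than that of all genes. The BAX to BCL2L1 ratio was 2.07 there, against 0.182 to 0.376 elsewhere.

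APAF1 and CASP8 varied together. Over the 14 libraries the Pearson correlation of their log2(FPKM + 1) was 0.872 and Spearman's rho 0.741 (permutation test with 100000 resamples, p = 0.00014, adjusted p = 0.00392 for r and 0.069 for rho over 28 pairs). Without the 2 libraries farthest from the median of APAF1, AFB1 replicate 2 and AFB1_CUR replicate 2, r was 0.583 (permutation p = 0.0458), and after the group means were removed it was 0.898. With AFB1 replicate 1 included r was 0.624, and it no longer passed, nor did any pair without AFB1 replicate 2. This was the only pair of the 28 to pass after adjustment on r, and no pair passed on rho. Of the 28 pairs, 25 had a positive r, with a median of 0.445. CASP9 was the gene that stood apart: its correlations with the other 7 ran from -0.276 with BAK1 to 0.140 with APAF1.

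Both APAF1 and CASP8 were highest in the libraries with most leukocyte RNA. The summed FPKM of 10 leukocyte markers, among them PTPRC, CD3E, CD79A and CD68, was 28.4 to 81.3 in CON, 42.6 to 185 in AFB1 and 56.9 to 308 in AFB1_CUR, and none of the 10 was at 0 in any library. AFB1_CUR replicate 2 had the 308 and AFB1 replicate 2 the 185, whereas the other 12 libraries had at most 81.3. Of the 9 leukocyte markers tested, 1 was called higher in AFB1_CUR than in CON, where 1.63% of all tested genes were called. None was called in AFB1 against CON or in AFB1_CUR against AFB1, where 1.76% and 0.935% of all tested genes were. In bulk tissue, more cells of a type and more RNA per cell cannot be told apart. This list was set against the members after the values had been seen.

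Across the 14 libraries APAF1 varied with the leukocyte sum (r = 0.908, rho 0.789, permutation p = 4e-05 for r and 0.00106 for rho, adjusted p = 0.00032 over the 8 genes). The relation was r = 0.638 (permutation p = 0.0213) without AFB1 replicate 2 and AFB1_CUR replicate 2, and 0.902 within groups. CASP8 had r = 0.874 and rho 0.789 (permutation test, adjusted p = 0.00092 for r and 0.0032 for rho), and r = 0.539 over the 12 libraries without them (permutation p = 0.0728), where it no longer passed. BAX had r = 0.648 and rho 0.824 (permutation test, adjusted p = 0.0256), and 0.623 without them. For BAK1 and MCL1 the adjusted p was 0.0579 each, for BCL2 0.115, for BCL2L1 0.582 and for CASP9, with r = -0.09, it was 0.753 (permutation tests). Over the 12 libraries without those 2, r was 0.749 for BAK1 (permutation p = 0.00605), 0.566 for BCL2L1 and -0.556 for CASP9. With both leukocyte-rich libraries left out, a setting chosen after the data were seen, APAF1 had a log2 fold change of 0.47 between AFB1_CUR and CON (unadjusted p 0.023, edgeR), under the fold threshold, and 0.24 between AFB1 and CON. The part of the leukocyte RNA in the difference of APAF1 was not tested.

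**Figure D4:**
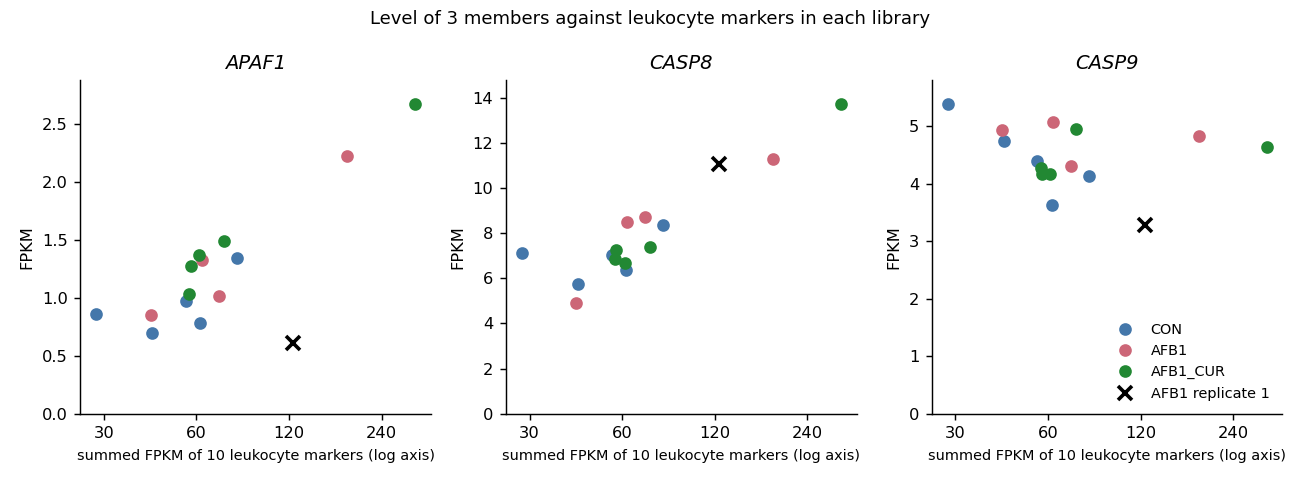
FPKM of APAF1, CASP8 and CASP9 against the summed FPKM of 10 leukocyte markers (log axis), 1 point per library, coloured by group, with AFB1 replicate 1 as a cross. APAF1 and CASP8 are highest in the libraries at 185 and 308, AFB1 replicate 2 and AFB1_CUR replicate 2, while CASP9 has no such slope.

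The tested genes whose log2(FPKM + 1) was most like that of each member over the 14 libraries were named by their Pearson correlation, as a description. For CASP8 these were TRAF1, an adaptor of tumour necrosis factor receptors (0.966), and PTP4A2 (0.959). For APAF1 they were SEPTIN7 (0.971) and ST8SIA4 (0.966), for BCL2L1 SMAD6 (0.915) and GATA2 (0.884), and for BAX MGME1, a nuclease of mitochondrial DNA (0.925), and CSNK1G2 (0.924). BAK1 was closest to PARD6G (0.932), BCL2 to FAM83H (0.921), MCL1 to LOC114118590 (0.904) and CASP9 to RTCA (0.847). CASP9 thus had the weakest nearest neighbour of the 8.

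The rest of the pathway was read from 46 further genes in 7 lists. Of these 43 were in the table and 36 passed the filter. In AFB1 against CON, 0 of the 36 were called, where 1.76% of all tested genes were. Of their estimates 26 were above 0 and 10 below, with a median log2 fold change of 0.06, against 53.4% of all tested genes above 0 and a median of 0.02. In AFB1_CUR against AFB1, 0 were called against 0.935% of all tested genes, and 18 estimates were higher and 18 lower. Between AFB1_CUR and CON, 1 was called higher and 1 lower by the screening conditions, where 1.63% of all tested genes were called, with 20 estimates higher and 16 lower and a median of 0.04 against 0.00 over all tested genes.

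Among the BH3-only proteins, which sense stress and set the effectors free, BNIP3 was lower in AFB1_CUR than in CON. BNIP3 is a mitochondrial protein induced by low oxygen and is also known as a receptor for mitophagy. Its FPKM was 111, 87.0, 87.4, 89.2 and 55.4 in CON, 55.9, 80.1, 77.6 and 94.2 in AFB1, and 61.3, 69.7, 52.7, 57.7 and 59.6 in AFB1_CUR. CON replicate 5 lay among the AFB1_CUR values, and the other CON libraries lay above all of them. The log2 fold change of BNIP3 was -0.59 (SE 0.19, unadjusted p = 0.00668, adjusted p = 0.823, edgeR), just past the 1.5-fold threshold, and -0.59 again without both leukocyte-rich libraries. The call was lost when CON replicate 1, 3 or 4 or AFB1_CUR replicate 3 or 5 was left out, where the estimate ran from -0.58 to -0.47. It was also lost with the replicate block, at -0.57, and with limma on log2(FPKM + 1) and log2(FPKM + 0.1), at -0.48 and -0.49. Against AFB1 the estimate was -0.44 (unadjusted p 0.040, edgeR), which is under the fold threshold. PMAIP1 (NOXA), a partner of MCL1, had an estimate of 0.62 (SE 0.36) in AFB1 against CON, and BAD, a partner of BCL-XL and BCL2, of -0.29 (SE 0.17). Neither was called, although PMAIP1 was without AFB1 replicate 5, at 0.87 (unadjusted p 0.0168, edgeR), and with sample quality weights, at 0.75.

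The IAP family restrains caspases or their adaptors, and its member BIRC3 was called higher in AFB1_CUR than in CON. The FPKM of BIRC3 was 2.96, 6.59, 4.10, 2.93 and 3.38 in CON, 11.5, 4.99, 4.13 and 3.36 in AFB1, and 6.64, 22.6, 5.18, 3.62 and 4.33 in AFB1_CUR. As for APAF1, AFB1_CUR replicate 2 was the highest and AFB1 replicate 2 the next. Its log2 fold change was 0.96 (SE 0.45, unadjusted p = 0.0497, adjusted p = 0.823, edgeR), and 0.31 (unadjusted p 0.356) without AFB1_CUR replicate 2. The call was also lost when CON replicate 1, 3, 4 or 5, AFB1 replicate 3, 4 or 5 or AFB1_CUR replicate 1 was left out, at 0.88 to 1.01. It was lost as well with sample quality weights, at 0.27, with limma on log2(FPKM + 1) and log2(FPKM + 0.1), at 0.67 and 0.77, and in a fit of only the compared groups, at 0.97 (unadjusted p 0.0529, edgeR). BIRC5 (survivin), which also works in cell division, ran from 0.643 to 9.78 FPKM and had an estimate of 0.64 (SE 0.59) in AFB1. None of the 5 tested genes of this family was called in AFB1 against CON or in AFB1_CUR against AFB1, with median log2 fold changes of 0.07 and 0.09.

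In the death receptor arm, which feeds into CASP8, 7 of 8 tested genes had estimates above 0 in AFB1 against CON, with a median of 0.08, and none was called. FADD, the adaptor that binds CASP8, stood at 5.69 ± 0.218, 6.12 ± 0.849 and 6.31 ± 0.400 FPKM in CON, AFB1 and AFB1_CUR, and TNFRSF1A at 39.7 ± 5.23, 44.2 ± 9.91 and 47.0 ± 11.5. CASP10, the relative of CASP8 that lies 70.0 kb from it on chromosome 2, had at most 0.177 FPKM in the kidney libraries and was not tested. The proteins released from mitochondria and their channels gave 7 tested genes, and none was called. The edgeR estimate was above 0 for 6 of them in AFB1 against CON, with a median of 0.06, and below 0 for all 7 in AFB1_CUR against AFB1, with a median of -0.17. The 2 comparisons share the AFB1 libraries, and over all tested genes the medians were 0.02 and 0.00. VDAC2, a channel of the outer membrane that also binds BAK1, had an FPKM of 151 ± 7.48, 158 ± 10.3 and 147 ± 19.8, and HTRA2 of 27.2 ± 2.38, 25.3 ± 1.43 and 25.8 ± 1.39. By mean FPKM, HTRA2 and DIABLO were higher in AFB1_CUR than in AFB1, although the edgeR estimate of each was -0.04. The rest of the 7 were lower on both scales.

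Of the other BCL2 relatives, BOK, an effector, averaged 33.4 FPKM in CON (SD 8.46), 28.1 in AFB1 (SD 8.49) and 30.1 in AFB1_CUR (SD 3.13), above the group means of BAX and BAK1 on this length-scaled measure. BCL2L2 (BCL-W) was steady at 7.31 ± 0.798, 7.53 ± 0.478 and 7.18 ± 0.560. BCL2A1, a survival protein of leukocytes, was at 4.25 ± 0.906, 7.11 ± 4.91 and 7.73 ± 7.94 and had its highest value, 21.7, in AFB1_CUR replicate 2, which also had the highest leukocyte sum. BBC3 (PUMA), BCL2L11 (BIM), HRK, BCL2L10, NAIP and FASLG did not pass the filter on low values.

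**Figure D5:**
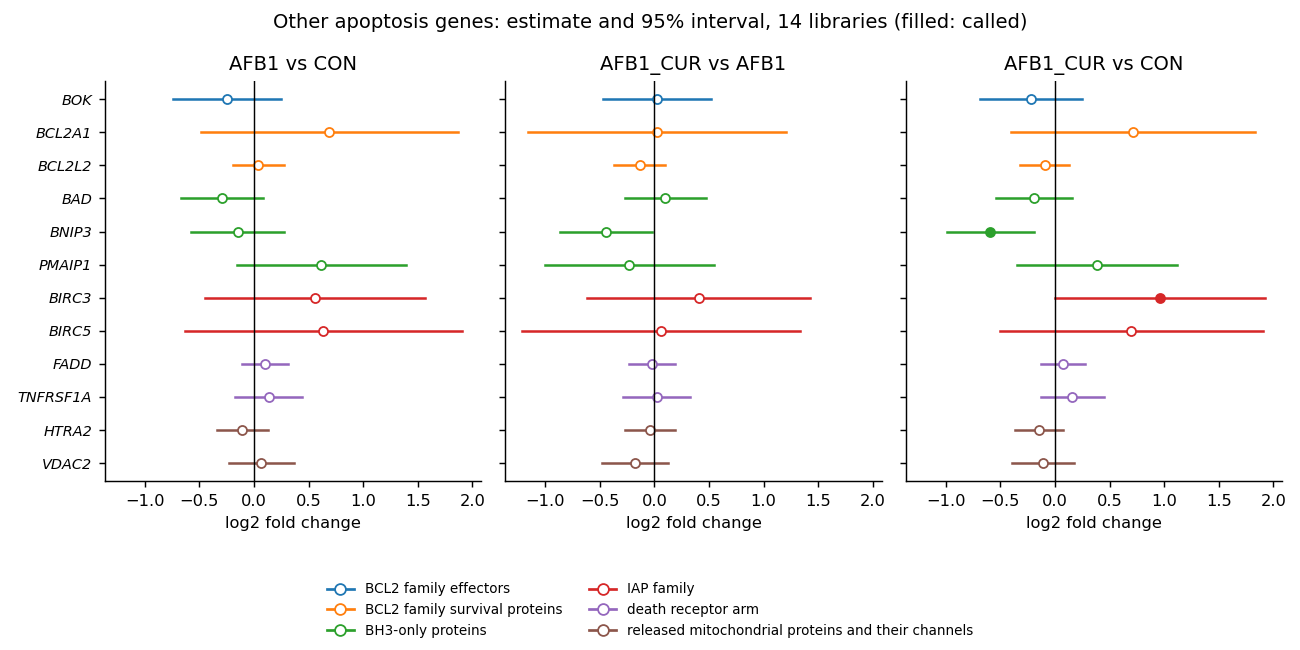
Log2 fold change and 95% interval of the 12 genes of the wider pathway named in the text, in the 3 comparisons (edgeR, 14 libraries), coloured by list. Filled points mark the genes called, BNIP3 at -0.59 and BIRC3 at 0.96 between AFB1_CUR and CON.

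Reads of overlapping genes could be shared where the counting ignored strand, which the sources used here do not state. The gene with the most signal relative to the member it overlaps was LOC101111210, described as an elastase and lying on the strand opposite to CASP9, at 1.16 to 2.25 FPKM in the 14 libraries. TULP2, opposite to BAX, was at 0.509 to 1.72 FPKM. The genes that overlap BAK1, BCL2, BCL2L1 and CASP8 had at most 0.420 FPKM, and none overlaps MCL1 or APAF1. Relative to the member, LOC121817704 had 10.5% of the FPKM of BCL2, against 8.09% for TULP2 and BAX and 37.1% for LOC101111210 and CASP9. A separate gene, LOC105610887, is described as a low-quality model of bcl-2-like protein 1, the product of BCL2L1, and had 0.205 to 0.549 FPKM against at least 31.9 for BCL2L1; reads could be split between the 2.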

How the data were processed

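RNA of sheep kidney, purified as poly(A) mRNA and made into dUTP-stranded libraries, was sequenced in 15 libraries, grouped here by their titles. Per the labels, the authors trimmed reads with cutadapt 1.9 and aligned them with HISAT2 2.2.1, and StringTie 2.1.6, DESeq2 and edgeR are named as well. The sources used here name neither the genome build nor the counting tool and its strand setting. The authors deposited a read count, not normalized, and an FPKM value for each gene and library. Gene coordinates equal those of ARS-UI_Ramb_v3.0 for 97.1% of the 25592 genes and for all 8 members.

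From the counts, genes with FPKM of at least 1 in at least 5 fitted libraries (13162 genes with 14 libraries, 13193 with 15) were fitted with edgeR 4.0.16 in R 4.3.3 (TMM, glmQLFit and glmQLFTest, group as the only term, p-values adjusted by Benjamini-Hochberg over all tested genes). All groups entered a single fit and so had a common estimate of the spread. AFB1 replicate 1 was left out, and the fit with 15 libraries is given beside it. The test itself gives no SE, so each SE is the size of the log2 fold change divided by the square root of its F statistic. The 95% intervals were formed from that SE with a t quantile and are approximate. Depth was 50255295 to 68747047 counts per library. Correlations used log2(FPKM + 1) and two-sided permutation tests with 100000 resamples. Alternatives were limma 3.58.1, DESeq2 1.42.0, other size factors, filters and pseudocounts, sample weights, the replicate block and leaving out libraries. The fit was also run on simulated counts to check the code, and no result given here rests on that run. No pair of libraries held identical counts.

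The members, the pathway lists, the marker lists and the rule for naming were chosen with earlier results of these data known. All 8 members were named, with the other pathway genes called in a comparison and the 2 with the lowest p in each list in AFB1 against CON, of which 2 are not reported here.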

Additional observations from a re-analysis of the deposited data

Results flagged for a closer look

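In 60 groups of 4 or 5 libraries (8 members and 12 other named genes, 3 groups each), 8 had a library whose distance to its nearest neighbour took up an unusually large share of the group's range by Dixon's test. Chance alone gives such a library in about 5% of groups. Of these, 5 were in AFB1_CUR replicate 2, the library with the highest leukocyte sum (308 FPKM): APAF1 stood at 2.672 FPKM, CASP8 at 13.7, BCL2A1 at 21.65, BIRC3 at 22.58 and BIRC5 at 9.778, each above the other 4 libraries of the group. The part of leukocyte RNA in these values was not tested.

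BAX was low in AFB1 replicate 5, at 10.59 FPKM against 14.2 to 14.7 in the other AFB1 libraries used. FADD was low in CON replicate 5, at 5.309 FPKM, and in AFB1 replicate 4, at 4.843 FPKM. In AFB1 replicate 1, which the 14-library comparisons did not use, CASP8 stood at 11.07 FPKM, above the highest CON library (8.38 FPKM).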

How the results depend on the processing

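Of 887 alternative values for the named genes, 822 kept their direction and their side of the call, 26 lost a call, 5 gained one and 34 changed sign. No member was called in AFB1_CUR against AFB1 under any setting, and the member calls of AFB1 against CON and AFB1_CUR against CON each ran from 0 to 1 when libraries were left out, APAF1 being the gene that changed. Differences under about 1.5-fold are within the intervals of several members, which 4 or 5 libraries a group cannot resolve; the causes of the changes below were not tested unless a setting names them.

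With all 15 libraries, BCL2L1 in AFB1 against CON went to -0.1471 and BOK to 0.1385, BCL2 in AFB1_CUR against AFB1 went to 0.0968, 0 correlations passed in place of 1, and 639, 525 and 131 genes were called in the 3 comparisons in place of 232, 123 and 214. With no filter on low values 867, 707 and 928 genes were called, and 1 wider apoptosis gene in each of AFB1 against CON and AFB1_CUR against AFB1. With limma on log2(FPKM + 1) 105, 81 and 80 genes were called, and between AFB1_CUR and CON 0 members and 0 wider genes. The limma fits on FPKM, with a pseudocount of 1 and of 0.1, used no TMM. In them the estimates were 0.0527 and 0.0578 for BAK1 and 0.0030 and 0.0056 for CASP8 in AFB1_CUR against AFB1. In AFB1_CUR against CON they were 0.0650 and 0.0661 for MCL1 and 0.0032 and 0.0053 for CASP9. The median over all tested genes was 0.0574 and 0.0699 in the first comparison and 0.0561 and 0.0655 in the second. In the main fit those medians were 0.0003 and -0.0029, so these changes of sign are about as large as the shift of all genes. BCL2 in AFB1_CUR against AFB1 was 0.0275 with 0.1, which also called 0 wider genes between AFB1_CUR and CON. With sample quality weights CASP9 in AFB1_CUR against CON was 0.0028, 336 genes were called in AFB1_CUR against AFB1, 1 wider gene was called in AFB1 against CON, and between AFB1_CUR and CON 0 members and 1 wider gene were called. Only the compared groups gave 1 wider gene there in place of 2.

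Replicate numbers did not pair the libraries throughout: 5 of 13 same-numbered pairs had correlated deviations above 0.1 (range -0.279 to 0.5521), and 4 of 14 libraries correlated best with their own number. The replicate 2 libraries did correlate with one another. The values were 0.3726 for CON with AFB1, 0.3817 for CON with AFB1_CUR and 0.5521 for AFB1 with AFB1_CUR. Each of them also had the highest leukocyte sum of its group. With the replicate block 228, 150 and 282 genes were called, BAX in AFB1 against CON was -0.0004, and BAK1 in AFB1_CUR against AFB1 was 0.0373. Between AFB1_CUR and CON, APAF1 stayed called at 0.64 (unadjusted p 0.00208, edgeR). The 1 wider gene called there was BIRC3, at 0.72 (unadjusted p 0.00508, edgeR). In AFB1 against CON, APAF1 was at 0.45 with the block (unadjusted p 0.0245, edgeR), under the fold threshold.

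Leaving out libraries, including AFB1 replicate 2 and AFB1_CUR replicate 2 together (added after the data were seen), gave in AFB1 against CON -0.0206 to 0.1111 for BAX, -0.3697 to 0.1457 for BCL2, -0.0204 to 0.1851 for BCL2L1, -0.0151 to 0.1435 for MCL1, -0.0132 to 0.1143 for BCL2L2 and -0.0225 to 0.1408 for VDAC2. In AFB1_CUR against AFB1 it gave -0.1817 to 0.1022 for BAK1, -0.3193 to 0.2027 for BCL2, -0.0645 to 0.4331 for APAF1 and -0.2465 to 0.0702 for CASP8. In AFB1_CUR against CON it gave -0.1147 to 0.0438 for MCL1 and -0.1381 to 0.0008 for CASP9. Genes called ran from 204 to 454 (highest without AFB1 replicate 5), from 119 to 261 (261 without AFB1 replicate 2, 221 without AFB1 replicate 5, 193 without AFB1_CUR replicate 2) and from 115 to 305 (lowest without AFB1_CUR replicate 2). Wider genes called ran from 0 to 1, 0 to 1 and 0 to 2, and the correlations that passed from 0 (without AFB1 replicate 2) to 2.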
